A study of Mus musculus with 60 samples.

Results

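D7E is a mouse cell line transfected with mutant Pabpn1 at a level that the labels call high, and it was set against IM2, the untransfected line. D7E was represented by 12 of the 60 arrays in the series and IM2 by another 12, chosen by their titles. The other transfected lines, on 36 arrays, were WTA (wild-type Pabpn1, high), WTD (wild-type, low) and D7F (mutant, low). Each line was grown as 3 cultures, and every culture was compared with the same IM2 reference RNA on 2 array parts that hold different probes, in both dye orientations. The series title names OPMD, oculopharyngeal muscular dystrophy. The labels used here do not give the mutation, the tissue of the lines, the promoter of the transfected gene, the time in culture or whether a line is 1 clone. Each genotype and level has 1 line, so an effect of the transfected gene and a difference between lines cannot be told apart. The labels do not say how the cultures were separated, so the p-values measure the spread between these cultures, which may be technical.

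The product of Pabpn1 binds poly(A) in the nucleus. It coats the tails of new transcripts and stimulates their extension by poly(A) polymerase. In people, an expanded run of alanines near the start of this protein causes OPMD, a late-onset disease of the eyelid and throat muscles in which the protein forms nuclear aggregates. Myoblasts, the precursors of muscle fibres, leave the cell cycle and switch on sarcomere genes when they differentiate.

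Values of cultures are log2 ratios over the common IM2 reference, averaged over both dye orientations, and differences are on the same log2 scale. The sizes hold only if the deposited log ratios have base 10, which the files do not state. Ratios give no absolute level, so no summed marker level and no marker at 0 can be given. On the D7E arrays 82.7% to 99.3% of rows were filled, and 3.21% to 16.0% of the filled values lay at the limits of the deposited scale and were dropped. On the IM2 arrays the filled share was 46.0% to 99.1% and the share at a limit 2.45% to 33.2%. With over 20% of values at a limit or under 60% of rows filled as the criterion, 4 IM2 arrays and 0 D7E arrays stood apart: both part I arrays of IM2 culture 1, and 1 part II array each of IM2 cultures 2 and 3. Among the other lines, 1 array of WTA culture 1 stood apart on each part. Across probes, which are not independent replicates, the D7E cultures correlated with r = 0.453 to 0.551 (part I) and 0.606 to 0.726 (part II), and the 2 dye orientations of a D7E culture with r = 0.123 to 0.255. The 2 orientations of an IM2 culture, which is hybridised against its own line, correlated with r = -0.347 to 0.00796, and the direction of the IM2 ratios has no marker gene. In all, 9706 probes were tested, which stand for 8107 named genes with 1 probe kept for each.

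Pabpn1 itself was higher in D7E than in IM2. The direction of the ratios was itself read from Pabpn1, so the sign of this difference is not a separate result. It read 1.71, 1.45 and 1.67 in D7E, against -0.24, -0.13 and -0.16 in IM2. The groups did not overlap, which with D7E above held for 17.3% of all tested probes. The difference was 1.79 (SE 0.14, adjusted p = 7.96e-05; limma with Benjamini-Hochberg adjustment over all probes), a 3.45-fold higher ratio. The mean was 1.61 ± 0.14 in D7E (SD, n = 3 cultures), beside 2.19 ± 0.29 in WTA, 1.43 ± 0.07 in WTD, 0.92 ± 0.11 in D7F and -0.18 ± 0.06 in IM2. From the mean of the other transfected lines D7E differed by 0.09 (SE 0.11, adjusted p = 0.911), and by -0.06 with the arrays centred and scaled. The files do not tell apart transcripts of the cell's own gene and of the transfected copy.

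D7E and IM2 differed at 1199 of 9706 probes at an adjusted p under 0.05, with 401 higher in D7E (4.13% of probes) and 798 lower (8.22%). Counted by gene, 357 of 8107 were higher (4.4%) and 654 were lower (8.07%). Every list count against IM2 below is to be read beside these shares. Among the called probes, 100 were higher by more than 1 and 231 lower by more than 1, which is a change by at least a factor of 2. The median difference over all probes was 0.02. Apart from any test, every measured D7E culture lay above every measured IM2 culture at 1678 probes (17.3%) and below at 1939 (20%), so a lack of overlap alone was common. The number of probes past the threshold was 779 without D7E culture 1, 790 without D7E culture 3 and 758 without IM2 culture 1, and 183 with D7E and IM2 fitted without the other lines. Without the arrays that stood apart 685 probes passed, and 620 of the original calls were among them. With IM2 culture 2 left out, 588 probes were higher and 739 lower.

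**Figure D1:**
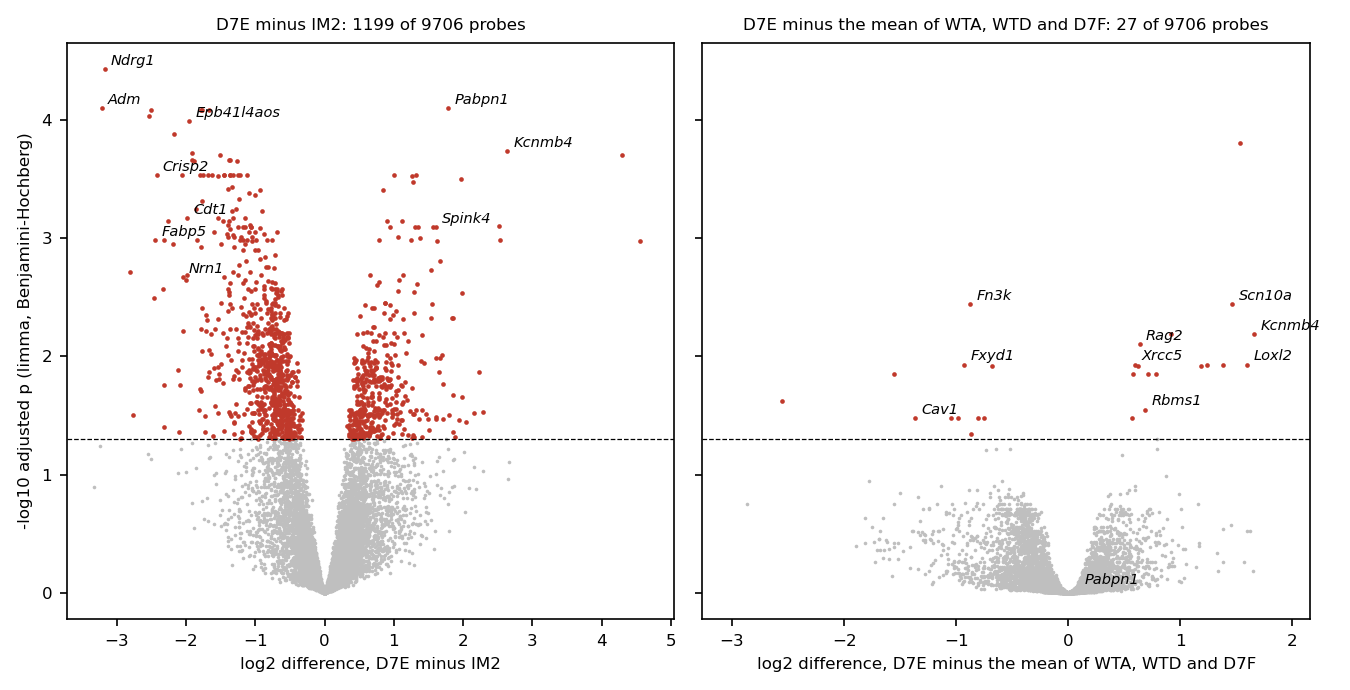
Each point is 1 of 9706 probes, with the log2 difference on the x axis (left, D7E minus IM2; right, D7E minus the mean of WTA, WTD and D7F) and -log10 of the adjusted p on the y axis; coloured points lie past an adjusted p of 0.05. On the left 1199 probes passed, 798 of them lower in D7E, and on the right 27.

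Genes known to be induced by low oxygen held the 3 largest falls among the named genes. Of 28 tested members of the hypoxia-responsive list, 14 fell and 1 rose in D7E, and the median difference of the list was -0.79, beside 0.02 over all genes. Adm, which encodes the vasodilator peptide adrenomedullin, read -3.85, -2.79 and -3.37 in D7E, against 0.15, -0.29 and -0.22 in IM2. Ndrg1, a gene induced by stress and hypoxia, read -3.38, -3.23 and -2.88 in D7E, against 0.35, -0.29 and -0.02 in IM2. For both genes every D7E culture lay more than 2 units below every IM2 culture. A lack of overlap was a condition of the largest falls, which include both. Adm fell by 3.22 (SE 0.26, adjusted p = 7.96e-05), a 9.3-fold lower ratio, and Ndrg1 fell by 3.18 (SE 0.21, adjusted p = 3.72e-05). A second Ndrg1 probe on part II had a difference of -2.04 (adjusted p = 0.00618).

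Ero1a, the oxidase that drives disulfide formation in the endoplasmic reticulum, read -2.66, -2.19 and -2.72 in D7E, against 0.46, -0.26 and -0.15 in IM2. Bnip3, a mitochondrial protein that promotes mitophagy and cell death, read -2.05, -1.88 and -2.26 in D7E, against 0.43, -0.16 and 0.05 in IM2. Neither gene overlapped between the lines, which was a condition of the largest falls that include both. D7E lay below IM2 in this way at 20% of all tested probes. The differences were -2.54 for Ero1a (adjusted p = 9.37e-05) and -2.17 for Bnip3 (adjusted p = 0.000131). Adm, Ndrg1, Ero1a and Bnip3 passed in all 17 alternative settings, each culture left out in turn among them. The gene of the list that rose was Tfrc, the transferrin receptor (0.74, adjusted p = 0.0282; named after its value was seen), whose part I probe did not pass. The list had 0 risers without D7E culture 2 or 3 or IM2 culture 1 or 3, and 13 to 15 falls without any 1 culture. With D7E and IM2 fitted alone 9 members fell. Hif1a and Epas1, transcription factors of this response named here as background, differed by 0.03 (adjusted p = 0.977) and -0.15 (adjusted p = 0.934). Against the other transfected lines the 4 leading genes did not pass (adjusted p = 0.195 for Adm, 0.457 for Ndrg1, 0.947 for Ero1a and 0.238 for Bnip3). Adm averaged -3.34 ± 0.53 in D7E and -3.34 ± 0.18 in WTD, and Bnip3 -2.06 ± 0.19 in D7E and -2.29 ± 0.02 in WTD.

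Promoters of members that fell are shown because hypoxia-inducible factors bind a short core motif, and many genes of this list are known as their targets. The motif ACGTG was searched on both strands in RefSeq promoters of mouse build GRCm38.p6, each with 250 bases before and 50 after the gene's start. It was present in 8 of the 10 fallen genes that had a promoter in the table, in 17 of all 21 list members with one (81.0%), and in 28.4% of all tested genes with one. It was held by 19.6% of all 32851 promoters. The list was chosen for such targets, so this describes the list and not D7E. The 150 bases before the start are given 5′ to 3′ on the gene's strand, with matches in capitals and overlapping matches joined. Ero1a lies at chr14:45318573-45318722 (minus strand, match at -63 from the start) and Bnip3 at chr7:138909507-138909656 (minus strand, overlapping matches at -108 and -107). Fam162a, a mitochondrial protein induced by hypoxia, lies at chr16:36071562-36071711 (minus strand, match at -81) and fell by 1.78 (adjusted p = 8.38e-05; named after its value was seen).
Ero1a: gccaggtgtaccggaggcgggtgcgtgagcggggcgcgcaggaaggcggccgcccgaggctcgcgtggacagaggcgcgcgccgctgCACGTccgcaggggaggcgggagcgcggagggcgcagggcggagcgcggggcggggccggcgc
Bnip3: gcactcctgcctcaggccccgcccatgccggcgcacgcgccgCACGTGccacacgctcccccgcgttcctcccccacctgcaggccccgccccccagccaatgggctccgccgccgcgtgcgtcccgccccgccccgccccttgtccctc
Fam162a: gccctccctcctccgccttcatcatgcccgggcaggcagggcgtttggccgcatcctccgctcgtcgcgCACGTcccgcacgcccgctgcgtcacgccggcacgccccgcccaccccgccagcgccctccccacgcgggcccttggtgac
The Adm promoter of the same table held no match in its window.

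Several core glycolytic enzymes are also induced by hypoxia. Of 20 tested, 3 fell and 1 rose, with a median of -0.15. The median was -0.33 without IM2 culture 1 or without the arrays that stood apart and changed sign to 0.27 with the culture RNA in Cy5 alone. Eno2, an enolase, read -2.15, -1.53 and -1.72 in D7E, against 0.32, -0.15 and 0.09 in IM2. Pgam1, a phosphoglycerate mutase, averaged -1.39 ± 0.18 in D7E and 0.01 ± 0.12 in IM2. Pfkl, the liver type of phosphofructokinase, averaged -1.34 ± 0.10 in D7E and 0.04 ± 0.12 in IM2. As at 20% of all tested probes, D7E lay below IM2 without overlap for all 3 enzymes. They fell, with differences of -1.89, -1.40 and -1.38 (adjusted p = 0.000224, 0.000386 and 0.000219), and each passed in the 17 settings run. The riser was Hk1, a hexokinase (0.59, adjusted p = 0.0132), while a second Hk1 probe differed by 0.24 (adjusted p = 0.638). With D7E and IM2 fitted alone the riser was lost, and the rises numbered 2 without IM2 culture 1 or 2.

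Among genes of the integrated stress response and of protein folding in the endoplasmic reticulum, those that passed had fallen, and most members did not pass. The integrated stress response slows general translation and raises a set of transcription factors and amino acid genes. Of 29 tested members 10 fell and 0 rose, with a median of -0.29. Ddit3, or CHOP, a transcription factor of prolonged stress, read -1.94, -1.89 and -1.78 in D7E, against 0.20, -0.31 and -0.20 in IM2. It fell by 1.77 with no overlap (SE 0.15, adjusted p = 8.38e-05), and its target Trib3, a pseudokinase, fell by 1.39 (adjusted p = 0.000783). Both passed in all 17 settings. Eif4ebp1, a repressor of cap-dependent translation, fell by 0.92 (adjusted p = 0.00479), and Atf4, the central transcription factor of the response, fell by 0.47 (adjusted p = 0.0136; named after its value was seen). With D7E and IM2 fitted alone 2 of the 29 fell.

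Among 32 folding and unfolded protein genes of the endoplasmic reticulum, 8 fell and 0 rose, with a median of -0.45. P4hb, a protein disulfide isomerase, read -1.60, -1.10 and -1.37 in D7E, against 0.26, -0.14 and -0.10 in IM2. Hspa5, the chaperone BiP, read -1.65, -1.34 and -0.89 in D7E, against 0.34, 0.09 and -0.22 in IM2. Both were lower in every D7E culture than in any IM2 culture. P4hb fell by 1.36 (adjusted p = 0.00239) and Hspa5 fell by 1.36 (adjusted p = 0.00588), while another Hspa5 probe differed by -0.09 (adjusted p = 0.798). Creld2, a secreted protein of the unfolded protein response, fell by 1.06 (adjusted p = 0.00442). The folding list had 4 falls without D7E culture 3, 5 without IM2 culture 1, 5 without the arrays that stood apart and 3 with D7E and IM2 fitted alone.

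Antioxidant and glutathione enzymes showed 9 falls and 1 rise among 36 tested, with a median of -0.24. Prdx4, a peroxiredoxin of the endoplasmic reticulum, read -1.83, -1.84 and -1.80 in D7E, against 0.08, -0.17 and 0.01 in IM2. It fell by 1.80 (SE 0.20, adjusted p = 0.000297) and passed in all 17 settings. Hmox1, heme oxygenase, fell by 1.13 (adjusted p = 0.00104) and Mt1, a metallothionein, fell by 1.07 (adjusted p = 0.00562). The riser was the peroxiredoxin Prdx1 (0.36, adjusted p = 0.0471; named after its value was seen). The list had 5 falls without D7E culture 3 and 2 with D7E and IM2 fitted alone, and its riser was lost without any 1 D7E culture or IM2 culture 1 or 3.

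Cell cycle and DNA replication genes had many falls: of 58 tested 22 fell in D7E, 36 did not pass and 0 rose, and the median was -0.56. Ube2c, the ubiquitin-conjugating enzyme that works with the anaphase-promoting complex, read -2.25, -2.34 and -1.52 in D7E, against 0.25, 0.04 and -0.21 in IM2. Cdt1, which licenses replication origins, read -2.10, -1.82 and -1.59 in D7E, against 0.30, 0.04 and 0.11 in IM2. No D7E culture reached an IM2 culture, as at 20% of all tested probes with D7E below. This was a condition of the largest falls, which include both genes. Ube2c fell by 2.06 (SE 0.25, adjusted p = 0.000297) and Cdt1 fell by 1.98 (SE 0.27, adjusted p = 0.000678). Mcm3, a subunit of the replicative helicase, fell by 2.47 (adjusted p = 0.00322) with D7E culture 2 not measured. Pola1, the catalytic subunit of DNA polymerase alpha, fell by 1.78 (adjusted p = 0.000486), again without D7E culture 2. The count of rises was 1 without IM2 culture 2. The list had 11 falls among 43 members tested without D7E culture 1, 11 among 42 without D7E culture 3, and 9 with D7E and IM2 fitted alone.

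Rb1 and Cdkn1c, which restrain the cell cycle and stand in the myogenic list, were higher. Rb1, the retinoblastoma protein, read 1.24, 1.17 and 1.49 in D7E, against -0.46, 0.23 and -0.51 in IM2. Cdkn1c, the cyclin-dependent kinase inhibitor p57, read 1.02, 1.11 and 1.05 in D7E, against -0.55, -0.19 and 0.07 in IM2. D7E lay above IM2 for both genes without overlap, as at 17.3% of all tested probes. This was a condition of the largest rises, which include Rb1. Rb1 rose by 1.54 (adjusted p = 0.00479) and Cdkn1c by 1.28 (SE 0.15, adjusted p = 0.000337), which passed in all 17 settings. Cdkn1a, the related inhibitor p21, differed by -0.07 (adjusted p = 0.921; named beside its relative).

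**Figure D2:**
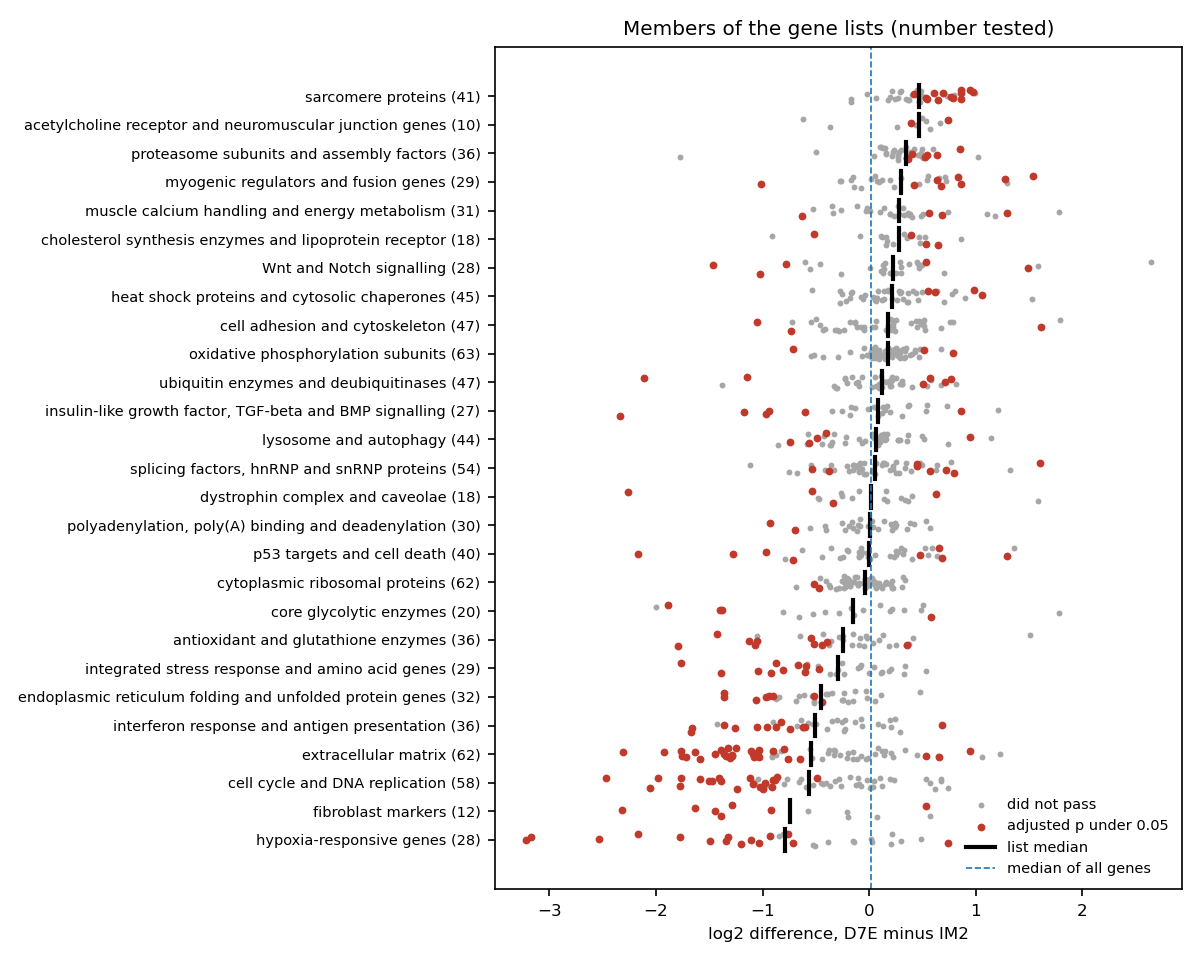
Each point is 1 gene of a list, with the log2 difference of D7E minus IM2 on the x axis and the lists on the y axis; coloured points passed an adjusted p of 0.05 and bars are list medians. The hypoxia-responsive list has the lowest median (-0.79) and the sarcomere list the highest (0.47), level with the neuromuscular junction list to 2 decimals.

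Extracellular matrix genes were the list with the most falls, 26 of 62 tested beside 3 rises, with a median of -0.54. Col11a1, a fibrillar collagen chain, read -1.90, -2.25 and -1.73 in D7E, against -0.21, 0.07 and 0.02 in IM2. Lama4, a laminin chain of basement membranes, read -1.69, -1.53 and -1.82 in D7E, against -0.05, 0.11 and 0.16 in IM2. The lines did not overlap for either gene, with D7E below IM2 as at 20% of all tested probes. Col11a1 fell by 1.92 (SE 0.19, adjusted p = 0.000219) and Lama4 fell by 1.76 (SE 0.19, adjusted p = 0.000297). Bgn, the proteoglycan biglycan, fell by 1.77 (adjusted p = 0.0039). The risers were Loxl1, a lysyl oxidase (0.53, adjusted p = 0.0462), the laminin chain Lamc1 (0.66, adjusted p = 0.00206) and Ogn, the proteoglycan osteoglycin (0.95, adjusted p = 0.0103), all named after their values were seen. The rises numbered 5 without IM2 culture 2. With D7E and IM2 fitted alone 12 of the 62 fell.

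Of 12 tested fibroblast markers, several of which are also matrix genes, 6 fell and 1, Loxl1, rose. Col1a1 and Col3a1, main fibrillar collagens, averaged -1.33 ± 0.09 and -1.30 ± 0.09 in D7E, against 0.05 ± 0.10 and 0.15 ± 0.46 in IM2. They fell, with differences of -1.39 (adjusted p = 0.00412) and -1.45 (adjusted p = 0.00214). The median ratio of the fibroblast markers was -0.68 in D7E, -0.45 in WTA, -0.44 in WTD, -0.32 in D7F and 0.05 in IM2. The count of fallen markers was 3 without D7E culture 1, 3 of 9 without the arrays that stood apart and 1 with D7E and IM2 fitted alone. Among markers of other cells, 2 of 9 adipocyte and 1 of 5 endothelial markers rose, and 0 of 7 smooth muscle, 0 of 6 neural, 0 of 1 leukocyte and 0 of 3 bone and cartilage markers passed. Cd36, a fatty acid transporter of adipocytes and muscle, read 1.26, 0.95 and 1.13 in D7E, against -0.05, 0.05 and -0.01 in IM2. It rose by 1.12 (adjusted p = 0.000714) and passed in all 17 settings. Plin2, a lipid droplet coat protein, rose by 1.13 (adjusted p = 0.0242) with D7E culture 2 not measured, a call that ended without IM2 culture 1 (adjusted p = 0.0592) or 3 (0.0567). The endothelial marker Nos3 (0.76, adjusted p = 0.0475) passed in 1 of 14 settings and was lost without IM2 culture 1 (adjusted p = 0.0863) or 3 (0.11). In bulk samples fewer cells of a type and less RNA per cell cannot be told apart, and the part of these markers in the other results was not tested.

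Interferon response and antigen presentation genes had more falls than rises: of 36 tested 11 fell, 24 did not pass and 1 rose, with a median of -0.51. Isg15, a ubiquitin-like modifier induced by interferon, read -1.48, -1.60 and -1.81 in D7E, against 0.05, -0.11 and 0.19 in IM2. Psmb8, a catalytic subunit of the immunoproteasome, read -1.56, -1.44 and -1.89 in D7E, against 0.34, -0.10 and -0.11 in IM2. The lines were separated by more than 1 unit for both. Isg15 fell by 1.67 (SE 0.14, adjusted p = 8.38e-05) and Psmb8 fell by 1.68 (SE 0.18, adjusted p = 0.000297), and a second Psmb8 probe differed by -0.57 (adjusted p = 0.03). The class I antigen-presenting molecules H2-D1 and H2-Q7 fell, with differences of -1.36 (adjusted p = 0.000297) and -1.25 (adjusted p = 0.000297), and probes of this family can detect close relatives. The riser was Iigp1, an interferon-induced GTPase (0.68, adjusted p = 0.0398; named after its value was seen), which was lost without any 1 D7E culture or IM2 culture 1 or 3. With D7E and IM2 fitted alone 7 of the 36 fell.

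In the other direction, 13 of 41 sarcomere genes rose and 0 fell, with a median of 0.47. Cap2, an actin regulator of striated muscle, read 0.85, 1.11 and 1.10 in D7E, against -0.11, 0.16 and 0.15 in IM2. Lmod2, which elongates thin filaments, read 0.62, 0.77 and 1.02 in D7E, against -0.12, -0.05 and -0.01 in IM2. Every D7E culture was above every IM2 culture. Cap2 rose by 0.95 (adjusted p = 0.0135) and Lmod2 by 0.87 (SE 0.15, adjusted p = 0.00354). Actn3, an actinin of fast fibres, rose by 0.87 (adjusted p = 0.0244) but lost its call without D7E culture 2 (adjusted p = 0.0678) or 3 (0.0712), or IM2 culture 1 (0.075) or 3 (0.0645). The probes of Ttn, the giant sarcomere protein titin, were split. In the list stands a probe that rose by 0.98 (adjusted p = 0.0326), while another differed by -0.72 (adjusted p = 0.0228) and the other two did not pass. The higher Ttn probe lost its call without D7E culture 2 (adjusted p = 0.0977) or 3 (0.113), or IM2 culture 1 (0.11) or 3 (0.056). The sarcomere list had 7 rises without D7E culture 2, 6 without D7E culture 3, 7 without IM2 culture 1, 7 without IM2 culture 3, 7 without the arrays that stood apart and 1 with D7E and IM2 fitted alone. Its median was 0.36 to 0.59 over the settings.

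Myogenic regulators and fusion genes had 7 rises and 1 fall among 29, with a median of 0.30. Myod1 and Myog, transcription factors of muscle commitment and differentiation named as background, differed by 0.30 (adjusted p = 0.101) and 0.66 (adjusted p = 0.134). Besides Rb1 and Cdkn1c, Fst, the myostatin antagonist follistatin, rose by 0.87 (adjusted p = 0.018) but did not pass without D7E culture 1 (adjusted p = 0.0637), or IM2 culture 1 (0.0512). Id2, an inhibitor of myogenic factors, fell by 1.02 (adjusted p = 0.0304), which ended without D7E culture 2 (adjusted p = 0.0831) or 3 (0.0992), or IM2 culture 1 (0.0976). The list had 4 rises without any 1 D7E culture or IM2 culture 3, 3 without IM2 culture 1, and 2 without the arrays that stood apart or with D7E and IM2 fitted alone. Ryr3, a calcium release channel, read 1.21, 1.42 and 1.29 in D7E, against -0.23, -0.05 and 0.30 in IM2. It rose without overlap by 1.30 (SE 0.17, adjusted p = 0.000815) and passed in all 17 settings, while another Ryr3 probe differed by 1.21 (adjusted p = 0.315). The calcium handling and energy list had 3 rises and 1 fall among 31, and the neuromuscular junction list 2 rises among 10. The calcium rises numbered 5 without IM2 culture 2, and the falls 0 without D7E culture 2 or IM2 culture 2 or 3. The junction rises numbered 0 without D7E culture 2 or 3 or IM2 culture 1 and 1 without D7E culture 1 or IM2 culture 2 or 3, and 0 without the arrays that stood apart or with D7E and IM2 fitted alone.

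Of 36 proteasome subunits and assembly factors 7 rose and 0 fell, with a median of 0.35. Psmc5, an ATPase of the regulatory particle, read 0.83, 0.70 and 0.75 in D7E, against -0.12, 0.19 and -0.35 in IM2. It rose by 0.85 (SE 0.16, adjusted p = 0.00684) without overlap, and Psmc3 of the same ATPase ring rose by 0.64 (adjusted p = 0.00874). The list had 4 rises without D7E culture 1 or 3 or IM2 culture 3, 2 without the arrays that stood apart and 0 with D7E and IM2 fitted alone. Heat shock proteins and cytosolic chaperones had 4 rises and 0 falls among 45, with a median of 0.22. Bag1, a co-chaperone of the HSP70 family, read 0.77, 0.78 and 0.83 in D7E, against -0.62, 0.05 and -0.22 in IM2. It rose by 1.06 (SE 0.14, adjusted p = 0.000978) with no overlap. Cct4, a subunit of the cytosolic chaperonin, rose by 0.98 (adjusted p = 0.00445), while its probe on part II differed by -0.12 (adjusted p = 0.856). The chaperone list had 2 rises without the arrays that stood apart and 0 with D7E and IM2 fitted alone.

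Genes that act on poly(A) tails, the substrate of Pabpn1, mostly did not pass: of 30 tested 2 fell and 0 rose, with a median of 0.01, and the rises numbered 1 without IM2 culture 2. Pabpc1, the cytoplasmic poly(A)-binding protein, read -0.90, -0.96 and -0.99 in D7E, against 0.13, -0.19 and -0.01 in IM2. It fell by 0.93 with no overlap (SE 0.11, adjusted p = 0.000396) and passed in all 17 settings. Papola, the canonical nuclear poly(A) polymerase, read -0.77, -0.77 and -0.50 in D7E, against -0.04, -0.08 and 0.17 in IM2, and fell by 0.69 (SE 0.11, adjusted p = 0.00281). Pabpc1 averaged -0.95 ± 0.05 in D7E, beside -1.05 ± 0.08 in WTA, -0.84 ± 0.05 in WTD and -0.85 ± 0.14 in D7F. Splicing factors had 6 rises and 2 falls among 54, with a median of 0.06, and cytoplasmic ribosomal proteins 2 falls among 62, with a median of -0.04.

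The counts of the remaining lists are to be read beside the shares over all genes, 4.4% higher and 8.07% lower. Of 63 oxidative phosphorylation subunits 2 rose and 1 fell, of 18 cholesterol synthesis genes 3 rose and 1 fell, and of 47 ubiquitin system genes 4 rose and 2 fell. Among 40 genes of p53 and cell death 4 rose and 4 fell, with Pdcd4, an inhibitor of translation initiation, up by 1.29 (adjusted p = 0.00286) and Casp6, an effector caspase, down by a difference of -1.28 (adjusted p = 0.0132). Of 44 lysosome and autophagy genes 1 rose and 4 fell, of 27 IGF and TGF-beta pathway genes 1 rose and 5 fell, and of 28 Wnt and Notch genes 2 rose and 3 fell. Grem1, a secreted BMP antagonist, fell by 2.34 (adjusted p = 0.00269) with D7E culture 2 not measured. The dystrophin complex and caveolae list had 1 rise and 3 falls among 18, where Dmd, dystrophin itself, read -0.59, -0.42 and -0.49 in D7E, against 0.08, -0.08 and 0.11 in IM2 and fell by 0.54 (adjusted p = 0.00959). Of 47 cytoskeleton and adhesion genes 1 rose and 2 fell.

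Most of these counts moved by over 1.5 times without 1 culture. The rises of the cholesterol list numbered 0 without D7E culture 1 or 3 or IM2 culture 1, and its falls 0 without D7E culture 1 or IM2 culture 1 or 2. The oxidative phosphorylation rises numbered 1 without D7E culture 1, 2 or 3 or IM2 culture 1. For the ubiquitin list the rises numbered 2 without D7E culture 1 or 3 or IM2 culture 1 and 7 without IM2 culture 2, and the falls 1 without D7E culture 1 or 3. For lysosome and autophagy genes the rises numbered 2 without IM2 culture 2, and the falls 1 without D7E culture 1 or 2 and 2 without IM2 culture 1 or 3. For IGF and TGF-beta genes the rises numbered 0 without D7E culture 1 or IM2 culture 1 and 2 without IM2 culture 2, and the falls 2 without D7E culture 3 and 3 without D7E culture 1 or IM2 culture 1. For Wnt and Notch genes the rises numbered 1 without D7E culture 1, 2 or 3 or IM2 culture 1 or 3 and 4 without IM2 culture 2, and the falls 0 without IM2 culture 3 and 1 without D7E culture 1 or 2 or IM2 culture 1. The rise of the dystrophin list became 0 without D7E culture 1, 2 or 3 or IM2 culture 1 or 3 and 2 without IM2 culture 2, and the cytoskeleton rises numbered 2 without D7E culture 2 or IM2 culture 2, with falls of 1 without D7E culture 1 or IM2 culture 1. The splicing rises numbered 2 without D7E culture 2 or IM2 culture 3 and 3 without D7E culture 1 or 3 or IM2 culture 1, the splicing falls 1 without D7E culture 2 or IM2 culture 1, and the ribosomal falls 1 without D7E culture 1, 2 or 3 or IM2 culture 1 or 3. With D7E and IM2 fitted alone the cholesterol, oxidative phosphorylation, ubiquitin, lysosome, Wnt and Notch, splicing and ribosomal lists had 0 calls each. The p53 and cell death counts moved by no more than 1.5 times without any 1 culture.

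Several of the largest differences lay outside these groups. Arrdc4, an arrestin-like protein that restrains glucose uptake, read -2.66, -2.45 and -2.34 in D7E, against 0.08, -0.20 and 0.20 in IM2, and fell by 2.51 (adjusted p = 8.38e-05). Fabp5, a fatty acid carrier, fell by 2.45 (adjusted p = 0.00104) and Crisp2, known as a sperm protein, fell by 2.43 (adjusted p = 0.000297). Nrn1, the neuronal surface protein neuritin, read -2.16, -1.64 and -1.74 in D7E, against 0.22, 0.24 and 0.14 in IM2, and fell by 2.05 (adjusted p = 0.00215). For none of these 4 genes did the lines overlap, which was a condition for choosing them. Fbxo32, a muscle ubiquitin ligase raised in atrophy, spread widely among the D7E cultures, with -1.80, -0.34 and -3.19 in D7E, against 0.22, 0.42 and 0.36 in IM2. It fell by 2.11 (SE 0.48, adjusted p = 0.0131). The call was lost with the IM2 ratios given the opposite sign (adjusted p = 0.0636) and with D7E and IM2 fitted alone (0.132). It was also lost in Cy5 alone (adjusted p = 0.151) and in Cy3 alone (0.23). Of the rises, Bex2, a small adaptor protein of neurons, read 1.41, 1.32 and 1.45 in D7E, against -0.30, -0.11 and -0.10 in IM2, and rose by 1.57 (adjusted p = 0.000815). Actr1a, the actin-related core of dynactin, rose by 1.62 (adjusted p = 0.00107) and Top1, DNA topoisomerase I, by 1.43 (adjusted p = 0.0115). With the IM2 sign turned the difference for Actr1a was 0.11 (adjusted p = 0.79), and its call also ended in Cy3 alone (adjusted p = 0.0844). The Bex2 call ended in Cy3 alone (adjusted p = 0.226). That of Top1 ended in Cy5 alone (adjusted p = 0.154), in Cy3 alone (0.0545) and with D7E and IM2 fitted alone (0.0789). Against the other transfected lines Arrdc4, Fabp5, Crisp2, Fbxo32, Bex2, Actr1a and Top1 did not pass (adjusted p = 0.177 to 0.9965). Bex2 averaged 1.40 in D7E, beside 1.23 in WTA, 1.28 in WTD and 1.64 in D7F. Actr1a averaged 0.86 in D7E, beside 1.72 in WTA, 0.20 in WTD and 0.23 in D7F.

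For some large rises D7E stood near the reference. Snrpb, a core spliceosomal protein, read 0.35, 0.12 and 0.25 in D7E, against -2.63, -0.09 and -1.40 in IM2. Jag2, a Notch ligand, read 0.08, 0.22 and 0.38 in D7E, against -2.10, -0.22 and -1.47 in IM2. Coro1b, an actin-binding coronin, read 0.33, 0.11 and 0.50 in D7E, against -1.37, -0.01 and -1.91 in IM2. IM2 cultures 1 and 3 were low in all 3 genes, while the D7E cultures lay between 0 and 0.5. The differences were 1.61 for Snrpb (adjusted p = 0.0338), 1.49 for Jag2 (adjusted p = 0.0337) and 1.41 for Coro1b (adjusted p = 0.0479). The Snrpb call ended without D7E culture 1, 2 or 3, or IM2 culture 1 or 3 (adjusted p = 0.0585 to 0.0843), the Jag2 call without D7E culture 1, 2 or 3, or IM2 culture 1 or 3 (adjusted p = 0.0628 to 0.106) and the Coro1b call without D7E culture 1, 2 or 3, or IM2 culture 1 or 3 (adjusted p = 0.0796 to 0.135). All 3 changed direction when the IM2 ratios were given the opposite sign. With that sign the calls against IM2 of these other named genes also ended: Actn3 (adjusted p = 0.279), Cct4 (0.0895), Plin2 (0.175), Nos3 (0.658), Padi2 (0.383), Rag2 (0.0736), Xrcc5 (0.321) and Fxyd1 (0.104). Among the largest rises those of Pcdh7 (adjusted p = 0.295), Fut8 (0.799), Sh2d2a (0.558), Camk2b (0.48) and P2ry1 (0.979) ended too.

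**Figure D3:**
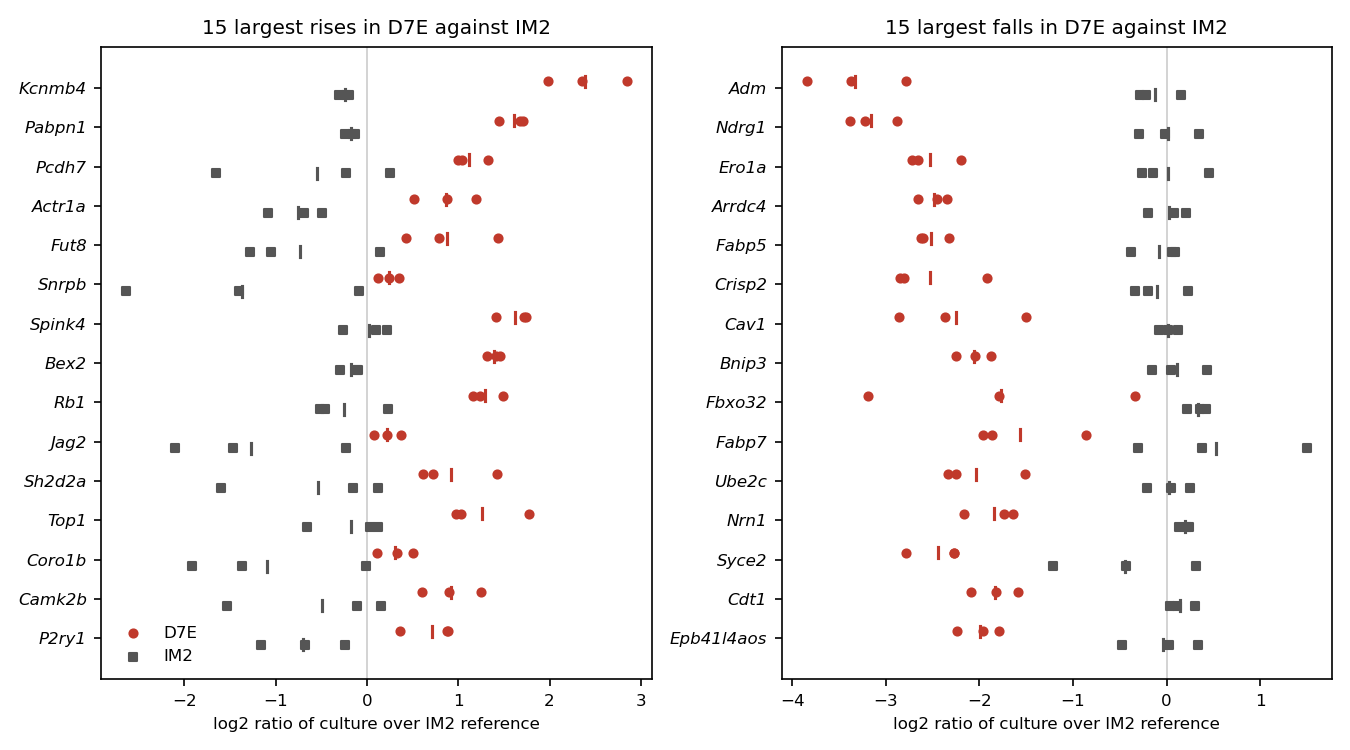
Log2 ratios over the IM2 reference (x axis) of the 15 largest rises and the 15 largest falls in D7E among called genes measured in all 6 cultures of D7E and IM2 without overlap; the colours mark D7E and IM2 cultures and short bars the means of 3 cultures. Adm and Ndrg1 lie lowest, with D7E means of -3.34 and -3.16, and for rises such as Snrpb and Jag2 the D7E cultures lie near 0. With the IM2 sign turned the calls of the rises Pcdh7, Actr1a, Fut8, Snrpb, Jag2, Sh2d2a, Coro1b, Camk2b and P2ry1 ended. So did those of the falls Fbxo32 and Fabp7.

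What is particular to D7E was asked by setting it against the mean of WTA, WTD and D7F, with no IM2 culture in the difference. The IM2 cultures still entered the shared spread and the probe filter. Here 16 probes were higher in D7E (0.165% of probes) and 11 were lower (0.113%), which by gene is 15 higher (0.185%) and 10 lower (0.123%), and 990 probes had an unadjusted p under 0.05. The count was 6 without D7E culture 2 and 14 without D7E culture 1, where the 27 calls were otherwise 18 to 32 without any other 1 culture. With each array centred on its median 15 were higher and 5 lower. Of the 27 calls, 1 was kept with the culture RNA in Cy5 alone and 6 in Cy3 alone. With the transfected lines fitted alone 22 probes passed, and 21 of the original calls were among them. In that fit the calls of Cav1 (adjusted p = 0.116), Limd1 (0.111), Chmp2b (0.108) and Pola1 (0.113) ended. Of the 27 calls, 18 were also called between D7E and IM2, a contrast that shares the D7E cultures. In 14 of these every measured D7E culture lay beyond every measured culture of all other lines, 7 above and 7 below. Over all 9706 probes D7E lay above all other cultures at 57 (0.587%) and below them at 134 (1.38%).

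Kcnmb4, a regulatory subunit of the calcium-activated BK potassium channel, was the largest rise among the named genes in both contrasts. It read 1.98, 2.35 and 2.85 in D7E, against -0.19, 0.25 and -0.35 in WTA, 1.46, 1.11 and 1.96 in WTD, 0.74, 1.05 and 0.55 in D7F and -0.19, -0.23 and -0.30 in IM2. The lowest D7E culture was just above the highest WTD culture, while WTA lay near IM2. Kcnmb4 was higher in D7E than in IM2 by 2.63 (SE 0.25, adjusted p = 0.000184), a 6.2-fold higher ratio, and higher than in the other transfected lines by 1.66 (SE 0.21, adjusted p = 0.00646). Scn10a, a sodium channel of sensory neurons, read 1.26, 1.44 and 1.20 in D7E, against -0.72, -0.76 and -0.81 in WTA, 0.63, 0.84 and 1.08 in WTD, -0.56, -0.81 and -0.40 in D7F and 0.80, -0.02 and 0.09 in IM2. WTA and D7F were below IM2 here, and D7E exceeded the other transfected lines by 1.47 (SE 0.16, adjusted p = 0.00364) and IM2 by 1.01 (adjusted p = 0.00792). Neither call against the other lines ended without any 1 culture, but both were lost with the culture RNA in Cy5 alone (adjusted p = 0.634 for Kcnmb4 and 0.634 for Scn10a), and Kcnmb4 also in Cy3 alone (adjusted p = 0.296).

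Spink4, a secreted inhibitor of serine proteases, read 1.74, 1.72 and 1.42 in D7E, against 0.32, 0.08 and -0.34 in WTA, 1.08, 1.07 and 1.26 in WTD, 0.59, -0.01 and -0.08 in D7F and -0.26, 0.10 and 0.22 in IM2. Padi2, which converts arginine to citrulline in proteins, read 0.72, 0.52 and 0.58 in D7E, against -1.98, -1.37 and -2.35 in WTA, 0.06, -0.20 and 0.22 in WTD, -0.36, -0.60 and -0.43 in D7F and -0.67, 0.15 and -0.28 in IM2. For both genes WTD was the transfected line nearest to D7E, and for Padi2 WTA was far below the rest. Spink4 exceeded the other transfected lines by 1.19 (adjusted p = 0.0121), which was lost without D7E culture 1 (adjusted p = 0.0656) or 2 (0.0912). Padi2 exceeded them by 1.39 (adjusted p = 0.0118), which ended without D7E culture 1 (adjusted p = 0.0602) or 2 (0.0706). Against IM2 the differences were 1.61 for Spink4 (adjusted p = 0.000815) and 0.87 for Padi2 (adjusted p = 0.0344), and the Padi2 call ended without D7E culture 1, 2 or 3, or IM2 culture 1 or 3 (adjusted p = 0.0663 to 0.111).

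Rag2, of the V(D)J recombinase, Xrcc5, the DNA end-binding protein Ku80, and Limd1, a LIM-domain scaffold, were the other named genes called in both contrasts and above all other cultures. Rag2 read 0.34, 0.37 and 0.36 in D7E, against -0.85, -0.95 and -1.15 in WTA, 0.23, 0.21 and 0.19 in WTD, 0.00, -0.01 and -0.20 in D7F and -0.04, -0.02 and -0.13 in IM2. The D7E cultures lay close together, just above WTD. Xrcc5 read 0.26, 0.37 and 0.15 in D7E, against 0.04, -0.03 and 0.06 in WTA, the nearest line, and Limd1 read 0.69, 0.61 and 0.49 in D7E, against 0.32, 0.27 and 0.09 in WTA. Their differences from the other transfected lines were 0.64 for Rag2 (adjusted p = 0.00788), 0.60 for Xrcc5 (adjusted p = 0.0118) and 0.57 for Limd1 (adjusted p = 0.0335). The Rag2 call ended without D7E culture 2 (adjusted p = 0.0639), the Xrcc5 call without D7E culture 1 (adjusted p = 0.0511) or 2 (0.0912) and the Limd1 call without D7E culture 1, 2 or 3, WTD culture 1, or D7F culture 1 or 2 (adjusted p = 0.0535 to 0.16). Against IM2 they differed by 0.42 (adjusted p = 0.0184), 0.35 (adjusted p = 0.0455) and 0.60 (adjusted p = 0.0086). The Rag2 call against IM2 ended without D7E culture 2 (adjusted p = 0.0507) and the Xrcc5 call without D7E culture 1 (adjusted p = 0.0909) or 2 (0.138), or IM2 culture 1 (0.124).

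Of the genes called in both contrasts and below all other cultures, Fn3k, the kinase that helps remove sugar adducts from proteins, kept its call in most settings. It read -0.45, -0.50 and -0.60 in D7E, against 0.51, 0.47 and 0.20 in WTA, 0.17, 0.23 and 0.21 in WTD, 0.51, 0.55 and 0.37 in D7F and -0.18, 0.09 and 0.18 in IM2. All 9 cultures of the other transfected lines were above 0 and all 3 D7E cultures below it. Fn3k differed from the other transfected lines by -0.88 (SE 0.10, adjusted p = 0.00364) and from IM2 by -0.55 (adjusted p = 0.0131). The first of these calls passed in 21 of 22 settings and was lost with the culture RNA in Cy5 alone (adjusted p = 0.111). Fxyd1, phospholemman, which regulates the sodium pump in muscle, read -0.30, -0.61 and -0.71 in D7E, against 0.86, 0.66 and 0.37 in WTA, 0.53, 0.79 and 0.44 in WTD, 0.16, -0.11 and -0.22 in D7F and -0.01, 0.20 and 0.15 in IM2. The highest D7E culture was close to the lowest D7F culture. Its difference from the other transfected lines was -0.93 (SE 0.13, adjusted p = 0.0118), a call that ended without D7E culture 2 (adjusted p = 0.0912) or 3 (0.0536), and that from IM2 was -0.66 (adjusted p = 0.0218), which ended without D7E culture 2 (adjusted p = 0.0643) or 3 (0.0713), or IM2 culture 3 (0.0501).

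Cav1, the main protein of caveolae, read -2.37, -2.86 and -1.50 in D7E, against -1.25, -0.44 and -0.56 in WTA, -1.40, -1.15 and -1.31 in WTD, -0.61, -0.48 and -0.73 in D7F and 0.01, 0.13 and -0.09 in IM2. It was below every IM2 culture in every transfected culture and lowest in D7E. The difference from IM2 was -2.27 (SE 0.29, adjusted p = 0.000714), a 4.81-fold lower ratio, and passed in all 17 settings. The difference from the other transfected lines was -1.37 (SE 0.24, adjusted p = 0.0335) and passed in 5 of 22 settings. It was lost without D7E culture 1 or 2, WTD culture 1, 2 or 3, or D7F culture 1, 2 or 3 (adjusted p = 0.0558 to 0.178).

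Pola1, described above among the replication genes, read -2.08 and -1.64 in D7E cultures 1 and 3, against -0.86, -1.52 and -1.25 in D7F, the next lowest line, and differed from the other transfected lines by -1.04 (adjusted p = 0.0335), a call lost without WTD culture 1, 2 or 3, or D7F culture 3 (adjusted p = 0.0558 to 0.0659). This Pola1 call passed in 5 of 19 settings, and the difference ranged from -1.65 to -0.37 over them. It was also lost with limit values kept (adjusted p = 0.134), with 1 array per culture accepted (0.66) and in Cy5 alone (0.967). Centring the arrays (0.0768) and centring with scaling (0.308) ended it too. D7E culture 2 holds no Pola1 value, so leaving it out changed the other probes of the fit but not the Pola1 difference. Chmp2b, a membrane-scission protein of the ESCRT-III complex, read -1.08, -1.06 and -0.59 in D7E, against 0.39, -0.18 and 0.15 in WTA, -0.05, -0.29 and -0.13 in WTD, -0.37, -0.25 and -0.21 in D7F and 0.12, -0.20 and 0.02 in IM2. D7E culture 3 stood nearest to the other lines. The difference of -0.81 (adjusted p = 0.0335) passed in 8 of 22 settings and was lost without D7E culture 1 or 2, WTD culture 1 or 3, or D7F culture 1, 2 or 3 (adjusted p = 0.0535 to 0.217), while that from IM2 was -0.89 (adjusted p = 0.00658). The pseudogene Gpr137b-ps, whose probe may also detect its parent gene, read -0.99, -2.71 and -2.16 in D7E, against 1.80 and 2.43 in WTA cultures 1 and 2, -0.04, -0.53 and -0.46 in WTD, 0.01 and 0.08 in D7F cultures 2 and 3 and -0.97, 0.46 and -0.18 in IM2. D7E culture 1 was close to the lowest IM2 culture, and WTA was high. The difference from the other transfected lines was -2.56 (adjusted p = 0.024), which passed in 6 of 17 settings and was lost without D7E culture 2 (adjusted p = 0.112) or 3 (0.0977), or WTD culture 1 (0.0615) or 3 (0.0534). The difference from IM2 was -1.72 (adjusted p = 0.0321) and ended without D7E culture 2 (adjusted p = 0.0981) or 3 (0.0873), or IM2 culture 2 (0.0586) or 3 (0.0686). The remaining probe of the 14 had no gene symbol.

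**Figure D4:**
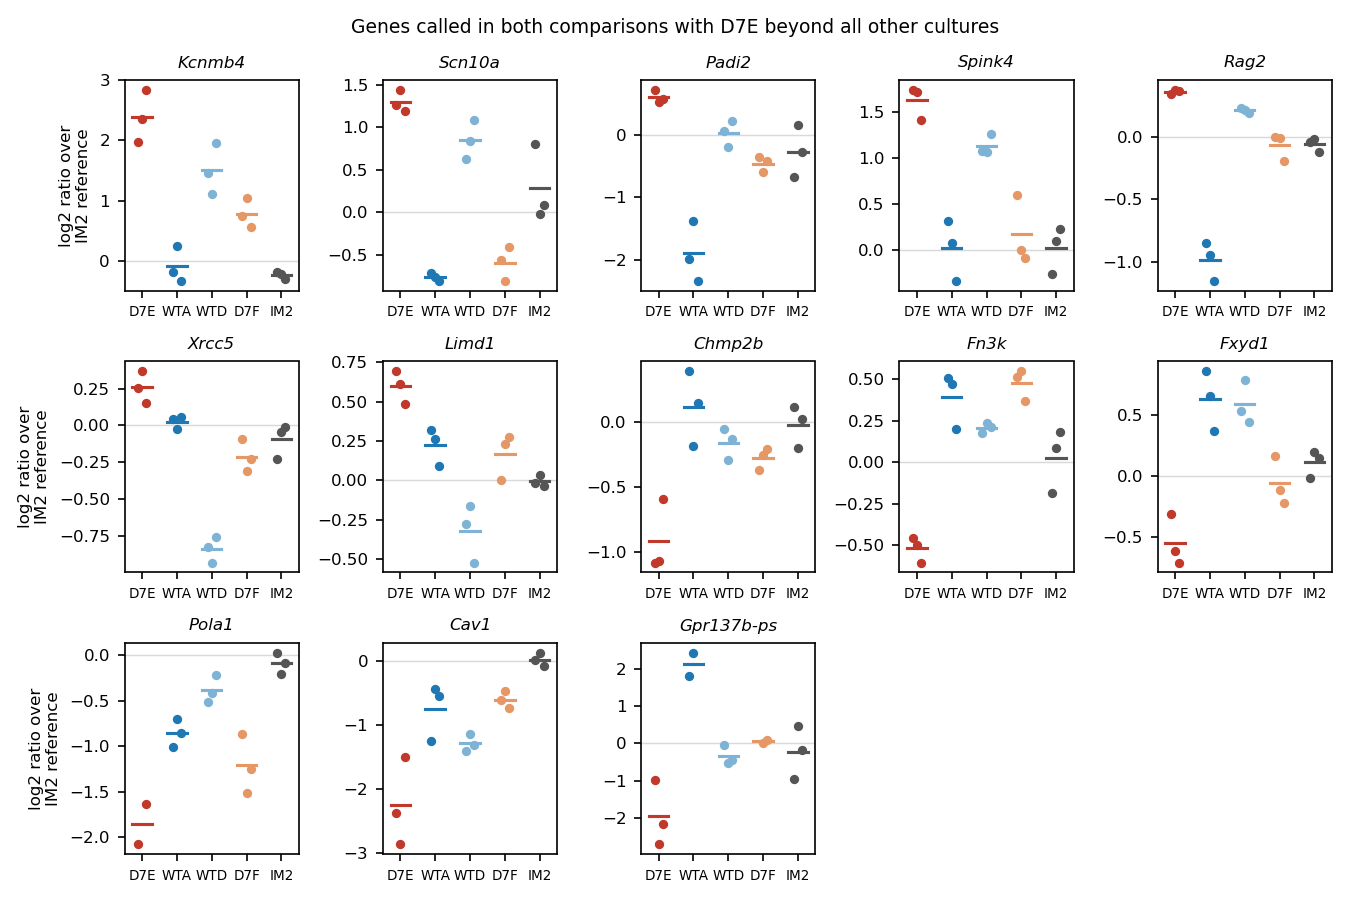
Log2 ratios over the IM2 reference (y axes, scaled per gene) of the 13 named genes called in both contrasts with D7E beyond all other cultures; points are cultures and bars line means, and the lines on each x axis run D7E, WTA, WTD, D7F, IM2. Kcnmb4, Scn10a, Padi2, Spink4, Rag2, Xrcc5 and Limd1 are highest in D7E, and the other 6 lowest.

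Other genes were called against the transfected lines although D7E stood near IM2. Myl2, the regulatory myosin light chain of slow and cardiac muscle, read 0.37, 0.13 and 0.34 in D7E, against 2.88, 2.38 and 1.35 in WTA, 2.22, 2.53 and 2.46 in WTD, 1.10, 0.96 and 0.65 in D7F and 0.42 and 0.18 in IM2 cultures 2 and 3. D7E lay below every culture of the other transfected lines and overlapped IM2. Myl2 differed from the other transfected lines by -1.55 (SE 0.24, adjusted p = 0.014) and from IM2 by -0.01 (adjusted p = 0.985). The first call ended without D7E culture 1 (adjusted p = 0.0609), 2 (0.112) or 3 (0.0537). Of 41 sarcomere genes it was the 1 called between D7E and the other lines, and the median difference of that list was -0.02.

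Loxl2, a lysyl oxidase that crosslinks collagen, read 0.30, 0.12 and 0.22 in D7E, against -0.94, -0.07 and -0.26 in WTA, -1.97, -2.08 and -2.03 in WTD, -1.01, -1.71 and -2.40 in D7F and -0.16, 0.05 and 0.15 in IM2. Gpx7, a peroxidase of the endoplasmic reticulum, read -0.17, -0.24 and -0.33 in D7E, against -0.93, -0.66 and -0.59 in WTA, -2.74, -3.92 and -3.47 in WTD, -0.44, -0.21 and -0.41 in D7F and -0.03, -0.06 and 0.08 in IM2. Loxl2 was low in WTD and D7F and Gpx7 in WTD, while D7E stayed near the reference in both. Loxl2 differed from the other transfected lines by 1.60 (adjusted p = 0.0118) and from IM2 by 0.20 (adjusted p = 0.702), and the first call ended without D7E culture 1 (adjusted p = 0.0587) or 2 (0.0672). Gpx7 differed from the other transfected lines by 1.24 (adjusted p = 0.0118) and from IM2 by -0.24 (adjusted p = 0.541), and the first call ended without D7E culture 1 (adjusted p = 0.0602) or 2 (0.0881).

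Mmp23, a membrane metalloprotease, read 0.09, 0.26 and 0.11 in D7E, against -0.80, -0.49 and -0.61 in WTA, -0.67, -0.60 and -0.68 in WTD, -0.19, 0.03 and -0.25 in D7F and -0.10, -0.03 and 0.04 in IM2. D7E was highest of the lines by a small margin over D7F and IM2. The difference from the other transfected lines was 0.62 (adjusted p = 0.0121), lost without D7E culture 2 (adjusted p = 0.0912). Sat1, the enzyme that acetylates polyamines for breakdown, differed by 0.71 (adjusted p = 0.014), lost without D7E culture 1 (adjusted p = 0.0866) or 2 (0.0912). Rbms1, an RNA-binding protein, differed by 0.69 (adjusted p = 0.0282), lost without D7E culture 1 or 2, WTD culture 1, or D7F culture 1 or 2 (adjusted p = 0.0535 to 0.152). Greb1, a growth regulator induced by estrogen, differed by -0.99 (adjusted p = 0.0335) and passed in 5 of 22 settings, with losses without D7E culture 1, 2 or 3, WTA culture 1, WTD culture 1, 2 or 3, or D7F culture 1 or 3 (adjusted p = 0.0535 to 0.17).

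Cdkn1c had yet another pattern, with 1.02, 1.11 and 1.05 in D7E, against -0.34, -0.38 and -0.18 in WTA, 1.49, 1.36 and 1.49 in WTD and -0.17, -0.50 and -0.30 in D7F. WTD was higher still than D7E, and WTA and D7F were below 0. The difference of D7E from the 3 lines was 0.78 (adjusted p = 0.014), lost without D7E culture 1 (adjusted p = 0.0602), 2 (0.101) or 3 (0.0536).

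Among the gene lists, the contrast with the other transfected lines gave at most 1 call in any list. The median difference of the hypoxia list was -0.24, with line medians of -0.91 in D7E, -0.51 in WTA, -0.92 in WTD, -0.56 in D7F and -0.01 in IM2. That of the cell cycle list was -0.14, with -0.61 in D7E, -0.54 in WTA, -0.35 in WTD, -0.62 in D7F and -0.08 in IM2. For the sarcomere list the line medians were 0.38 in D7E, 0.51 in WTA, 0.38 in WTD, 0.41 in D7F and -0.04 in IM2. In these 3 lists D7E lay within the range of the other transfected lines or at its edge, and all 4 transfected lines lay on the same side of IM2.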

How the data were processed

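Total RNA of 15 cultures was measured on 60 spotted 2-colour arrays, 30 on each of 2 array parts. The authors deposited log ratios with no unit stated. Because these deposited values stop exactly at -2 and 2, they were read as log10 and multiplied by 3.32 to give log2 ratios. How the arrays were scanned, corrected for background and normalised is not given in the sources used here. Spot intensities were not analysed here, so signal over background is unknown. Groups and culture numbers came from the titles and dyes from the channel sources, which disagree with the titles for WTA culture 3 on part I. The description of 1 D7F array calls its level high, and the title was used. Ratios were read as culture over reference, since Pabpn1 was positive in all 12 transfected cultures on part I. Part II has no such marker.

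Values at the limits were dropped, and rows with identical values on every array were kept once. A culture needed both dye orientations, and a probe at least 2 cultures of every line. All 5 lines entered 1 limma fit per part (limma 3.58.1, R 4.3.3), with Benjamini-Hochberg adjustment over both parts and a threshold of 0.05. The contrasts were D7E minus IM2 and D7E minus the mean of WTA, WTD and D7F. The fit was also run on simulated independent cultures with the same spread in every line. That setting does not cover the uneven quality of the IM2 arrays, and its outcome is not reported here. Probes were named from the platform annotation and RefSeq: on part I 6722 of 7600 and on part II 9239 of 14326 distinct probes matched 1 RefSeq gene.

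Named genes were those called with all cultures of the lines compared measured and not overlapping, the 15 largest each way against IM2 and the 12 largest each way against the other lines, with up to 4 and 2 called members of each list. Also named were Pabpn1 and up to 8 genes each way called in both contrasts and beyond all other cultures. Genes outside this rule are marked where they appear. Members and lists were chosen with earlier results of these data known. Culture numbers were not used to pair the samples. Deviations of D7E and same-numbered cultures correlated with r = -0.0955 to 0.287 (part I, median 0.0536) and -0.142 to 0.268 (part II, median 0.0752). With other-numbered cultures r was -0.32 to 0.17 (part I, median -0.03) and -0.264 to 0.224 (part II, median -0.03). The same-numbered medians were higher, and whether the numbers mark a shared batch was not tested. The alternatives were limit values kept, 1 array per culture accepted, centring, scaling, each dye alone, a replicate block, stricter probe filters, doubtful arrays or single cultures left out, the IM2 sign turned, and fits of fewer lines.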

Additional observations from a re-analysis of the deposited data

Results flagged for a closer look

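The following genes differed between D7E and the mean of WTA, WTD and D7F by the test of that difference (limma, Benjamini-Hochberg adjusted p under 0.05). Higher in D7E were Kcnmb4 by 1.66, Loxl2 by 1.60, Scn10a by 1.47, Padi2 by 1.39, Gpx7 by 1.24 and Spink4 by 1.19 on the log2 scale. Smaller rises were those of Cdkn1c (0.78), Sat1 (0.71), Rbms1 (0.69), Rag2 (0.64), Mmp23 (0.62), Xrcc5 (0.60) and Limd1 (0.57). Lower in D7E were Myl2 with a difference of -1.55, Cav1 with -1.37, Pola1 with -1.04, Greb1 with -0.99, Fxyd1 with -0.93, Fn3k with -0.88 and Chmp2b with -0.81. Not every called gene is listed here, and the pseudogene Gpr137b-ps had a larger fall, with a difference of -2.56 (adjusted p = 0.024). The transfected lines differ in genotype, level and line at once, and these cannot be told apart here.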

How the results depend on the processing

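The count of 1199 probes between D7E and IM2 became 759 with values at the limits kept, 668 with 1 array per culture accepted, 422 with the culture RNA in Cy5 alone, 477 in Cy3 alone, 685 without the arrays that stood apart and 183 with D7E and IM2 fitted alone. It ranged from 758 to 1327 without any 1 culture. With the opposite sign for the IM2 ratios it was 1316, with 95 of the original calls in the opposite direction. The count of 27 against the other transfected lines became 8 with 1 array accepted, 16 with arrays centred and scaled, 1 in Cy5 alone and 7 in Cy3 alone, and ranged from 6 to 32 without any 1 culture. With the culture number as a replicate block the counts were 1130 and 20, of which 1050 and 19 were among the original calls, and the block gave 15 higher and 5 lower against the other lines. The median difference of all probes from IM2 was 0.12 in Cy5 alone and -0.08 in Cy3 alone. Against IM2, Snrpb reversed to -1.13, Jag2 to -1.04, Coro1b to -0.78, Sntb2 to -0.34, Dnajc2 to -0.13 and Srebf2 to 0.40 with the IM2 sign turned. With the limit values kept Ppp1r15a reversed to 0.0622 and Nos3 to -0.53, and in Cy5 alone Ube2h reversed to 0.48 and Gpr137b-ps to 0.62. The difference for Srebf2, D7E vs IM2, was 0.0858 in Cy5 alone. Pabpn1 against the other transfected lines reversed to -0.0613 with arrays centred and scaled. The causes were not tested. Over 149 results for single genes, Pabpn1 not counted, 1851 repeats kept direction and side of the threshold, 719 kept the direction but missed the threshold and 11 reversed. The 3 cultures per line limit the precision, and the filled share of the IM2 arrays limits which probes could be tested.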
